A study of Mus musculus with 20 samples.

Results

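The region described is the stretch of mouse chromosome 1 around Idh1, taken as all open-chromatin peaks whose centre lay from 55200000 to 75200000 in mm10. It held 923 of the 125343 peaks of the series, and 919 of the 923 passed a filter on low counts and could be tested. The rule for members used position only, but it was set with earlier results of these data known. The RefSeq gene Idh1 lies at chr1:65158616-65186479 in the middle of the stretch, and 2 peaks took its name. ATAC-seq, which tags open DNA with a transposase, was applied to bone marrow LSK cells (Lin-cKit+Sca1+ by sorting), a population that holds blood stem cells and early progenitors.

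All mice were labelled C57Bl/6J and were 3 to 4 months old, and each genotype had 4 libraries, each from a pool of 2 mice. The controls (WT) carried +/+;Vav-Cre, and the Idh mutants carried Idh1LSL-R132H/+, Idh2LSL-R140Q/+ or Idh2LSL-R172K/+, each with Vav-Cre. The fifth group was labelled Tet2-/- with no Cre named, so loss of Tet2 and a lack of Cre cannot be told apart there. LSL marks an allele that stays silent until Cre removes a stop cassette, and the Vav promoter drives Cre in blood cells. A pool of animals gives no value for a single mouse, and p values measure the spread between pools.

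Idh1 encodes the cytosolic isocitrate dehydrogenase, Idh2 the mitochondrial one, and the mutant enzymes make 2-hydroxyglutarate, which inhibits dioxygenases such as the TET proteins. TET2 oxidises 5-methylcytosine, a step towards removal of DNA methylation. An allele made in stem cells of one strain and bred into another carries flanking DNA of the donor strain with it next to the targeted gene. The question put to the stretch was which of its changes were seen in Idh1 R132H and in no other genotype.

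The 20 libraries held 10.5 to 27.9 M counts in peaks (M, 1e6). The stretch took 0.699% to 0.725% of the scaled counts in the Idh2 R172K libraries and 0.641% to 0.692% in those of the other genotypes. Of 7 LSK and progenitor markers, 6 had a peak at their start (all but Mecom), at 20.8 to 25.8 CPM per gene (CPM, counts per 1e6 counts of the library). No B cell marker (0 of 3) and no T or NK cell marker (0 of 4) had such a peak. Erythroid markers had 1 of 4 (8.57 to 11.7 CPM), granulocyte and monocyte markers 3 of 4 (4.48 to 7.44 CPM), and stromal and endothelial markers 2 of 4 (12.6 to 17.8 CPM).

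Promoter sequences are shown here for the genes of the stretch that carry its results at start sites: Idh1 at both of its annotated starts, where Idh1 R132H did not pass the test, Casp8 and Cxcr1, which lost accessibility in Idh2 R172K, and Fzd5, which gained it. Each is a RefSeq window of 300 bases on GRCm38.p6, read 5′ to 3′ on the gene's strand, with every CpG, the site of DNA methylation, in capitals. The windows are chr1:65186430-65186729 and chr1:65179093-65179392 for Idh1 (both minus strand), chr1:58802252-58802551 for Casp8 (plus), chr1:74194582-74194881 for Cxcr1 (minus) and chr1:64737701-64738000 for Fzd5 (minus).
Idh1 upstream start: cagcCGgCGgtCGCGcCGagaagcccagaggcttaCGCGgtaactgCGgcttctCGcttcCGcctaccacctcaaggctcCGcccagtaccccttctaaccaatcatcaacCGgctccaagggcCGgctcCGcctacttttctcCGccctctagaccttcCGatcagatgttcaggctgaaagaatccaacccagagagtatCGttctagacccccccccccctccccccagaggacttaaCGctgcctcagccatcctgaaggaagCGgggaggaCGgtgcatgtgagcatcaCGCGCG
Idh1 downstream start: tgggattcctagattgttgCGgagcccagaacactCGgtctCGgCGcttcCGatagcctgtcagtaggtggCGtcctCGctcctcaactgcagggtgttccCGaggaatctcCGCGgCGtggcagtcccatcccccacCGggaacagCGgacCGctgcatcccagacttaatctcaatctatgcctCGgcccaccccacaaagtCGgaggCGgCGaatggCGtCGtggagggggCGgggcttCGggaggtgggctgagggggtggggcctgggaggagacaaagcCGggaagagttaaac
Casp8: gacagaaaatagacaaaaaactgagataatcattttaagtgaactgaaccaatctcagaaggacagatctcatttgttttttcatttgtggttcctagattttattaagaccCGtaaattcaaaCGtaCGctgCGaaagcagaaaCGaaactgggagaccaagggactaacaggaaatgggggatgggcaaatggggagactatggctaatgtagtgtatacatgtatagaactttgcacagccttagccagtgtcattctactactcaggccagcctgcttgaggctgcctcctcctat
Cxcr1: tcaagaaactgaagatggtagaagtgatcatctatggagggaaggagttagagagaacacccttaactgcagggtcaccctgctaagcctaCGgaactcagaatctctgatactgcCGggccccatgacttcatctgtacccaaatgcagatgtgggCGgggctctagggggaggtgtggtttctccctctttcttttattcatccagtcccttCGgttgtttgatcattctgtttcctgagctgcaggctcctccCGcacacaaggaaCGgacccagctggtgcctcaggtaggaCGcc
Fzd5: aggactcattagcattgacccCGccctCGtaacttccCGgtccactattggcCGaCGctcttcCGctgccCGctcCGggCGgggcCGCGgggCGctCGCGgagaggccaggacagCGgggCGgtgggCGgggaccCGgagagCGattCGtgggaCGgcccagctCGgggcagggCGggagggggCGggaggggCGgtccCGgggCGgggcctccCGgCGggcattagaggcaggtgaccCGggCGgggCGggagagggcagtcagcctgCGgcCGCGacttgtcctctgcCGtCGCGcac

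The Idh1 windows held 23 CpG each, the Fzd5 window 38, the Cxcr1 window 7 and the Casp8 window 5, against a median of 7 over 32851 RefSeq promoter windows. The GC box GGGCGG, searched on both strands, was found in both Idh1 windows and in those of Fzd5 and Cxcr1, but not in that of Casp8. It occurred in 35.7% of all windows. None of the 5 windows held TATAAA (13.6% of all windows) or CCGGAA (14.9%).

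Accessibility at Idh1 itself did not pass the test in Idh1 R132H. The strongest Idh1 peak, chr1:65178060-65179449 in intron 1 of 8, over the downstream start, had 67.48, 69.32, 65.18 and 78.02 CPM in WT and 65.05, 71.8, 69.71 and 77.93 CPM in Idh1 R132H. The 2 groups overlapped almost fully. The log2 fold change against WT was 0.02 ± 0.07 (SE), with an adjusted p of 1 in edgeR's quasi-likelihood test with Benjamini-Hochberg adjustment, which is the test behind every adjusted p given here unless another is named.

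The peak over the shared start of Idh1 and Pikfyve, a lipid kinase gene transcribed the other way (chr1:65186260-65187149), gave 40.2 ± 2.55 CPM in WT and 43.2 ± 3.23 CPM in Idh1 R132H (mean ± SD, n = 4), a log2 fold change of 0.10 ± 0.07 (edgeR adjusted p = 1). The weak peak chr1:65146501-65146801, 11965 bases beyond the Idh1 gene boundary, had 0.263 ± 0.0841 CPM in WT and 0.292 ± 0.11 CPM in Idh1 R132H. Idh2 R172K differed from WT at all of them. Its log2 fold change was 0.25 ± 0.07 at the strong peak (edgeR adjusted p = 0.00357), where the 4 libraries had 81.9, 81.1, 81.5 and 88.2 CPM and lay above every WT library. It was 0.23 ± 0.07 at the shared start (edgeR adjusted p = 0.00526) and 1.85 ± 0.34 at the weak peak (edgeR adjusted p = 1.35e-05). With cyclic loess scaling the calls at the strong peak and at the shared start were lost (edgeR adjusted p = 0.327 and 0.224, log2 fold changes of 0.06 and 0.08), and the call at the weak peak was kept.

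Within 1 Mb of the middle of the stretch, 83 peaks were tested. None was called in Idh1 R132H by edgeR (lowest adjusted p = 0.195) or by DESeq2, where edgeR called 0.0274% of all tested peaks. An unadjusted edgeR p under 0.05 was reached by 9 of the 83, beside 5.07% of all tested peaks. In Idh2 R172K, edgeR called 50 of the 83 (60.2%), beside 53.0% of all tested peaks, and 29 of them were raised (34.9%, beside 25.1%).

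Farther out, 8 peaks of the stretch were called in Idh1 R132H against WT at an adjusted p under 0.05 (edgeR's quasi-likelihood test), 1 raised and 7 lowered. That is 0.871% of the 919 tested, beside 0.0274% over all 123908 peaks tested in that comparison. None of the 8 was of the promoter class: 4 lay outside genes and 4 inside. They lay 1.1 to 8.9 Mb from the middle of the stretch, 3 on the lower side and 5 on the higher side. The 7 lowered peaks kept 39.6% to 69.5% of their WT level, and their WT means ran from 1.8 to 17.9 CPM, beside a median of 2.23 CPM over the tested peaks of the stretch.

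**Figure D1:**
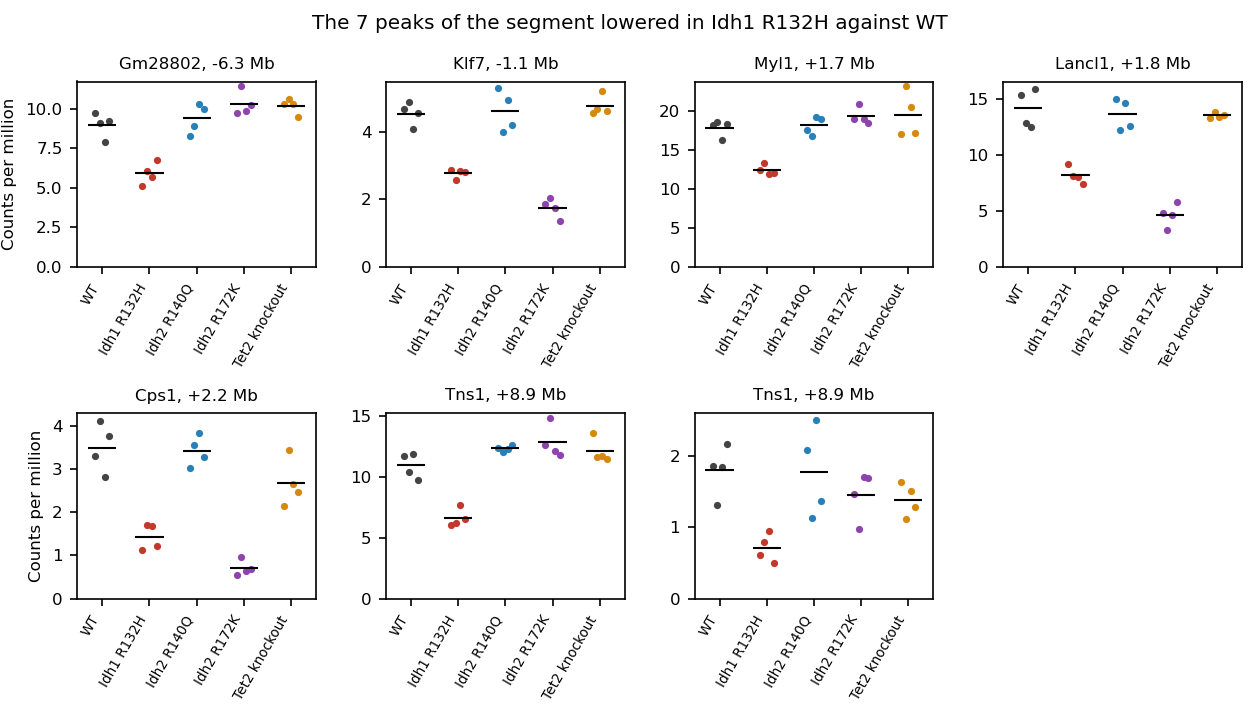
CPM (vertical axis, from 0) in each of the 20 libraries for the 7 peaks of the stretch lowered in Idh1 R132H, with distances from the middle of the stretch in the panel titles and points grouped by genotype. Each point is a library and each bar a mean of 4. Idh1 R132H lies below WT in all 7 panels, at 39.6% to 69.5% of the WT mean, with Idh2 R172K lower still at Klf7 (1.75 CPM), Lancl1 (4.63 CPM) and Cps1 (0.704 CPM).

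Idh1 R132H differed from every other genotype, in one direction and each time at an adjusted p under 0.05, at 5 peaks of the stretch (0.544% of 919, 1 raised and 4 lowered). Over all tested peaks this held for 12, or 0.00968%. The first of the 4 lowered peaks was an intergenic peak 1176 bases from the predicted gene Gm28802 (chr1:58897449-58898300). It had 9.71, 9.08, 7.88 and 9.19 CPM in WT and 5.14, 6.04, 5.71 and 6.75 CPM in Idh1 R132H, all 4 below every other library of the series. The log2 fold change against WT was −0.62 ± 0.10 (edgeR adjusted p = 0.00235).

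An intergenic peak 28310 bases from Myl1, a skeletal muscle myosin light chain gene (chr1:66895055-66896916), had 18.2, 18.6, 16.3 and 18.3 CPM in WT and 12.4, 13.3, 11.9 and 12.1 CPM in Idh1 R132H. No Idh1 R132H library reached the lowest library of the other genotypes. The log2 fold change was −0.53 ± 0.08 against WT (edgeR adjusted p = 0.0013) and from −0.65 to −0.55 against the other 3 genotypes.

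Both remaining peaks lay in Tns1, the gene of tensin 1, which links integrins to the actin cytoskeleton. The one in intron 3 of 6 (chr1:74055519-74056164) had 11.7, 10.4, 11.9 and 9.76 CPM in WT and 6.03, 6.21, 7.68 and 6.57 CPM in Idh1 R132H, a log2 fold change of −0.72 ± 0.09 (edgeR adjusted p = 5.87e-05). In Idh2 R172K this peak was called in the other direction, at 12.8 ± 1.35 CPM (log2 fold change 0.22 ± 0.09, edgeR adjusted p = 0.0387). That call was lost in 7 of 28 other settings. The one in intron 2 of 6 (chr1:74074656-74075068) had 1.86, 1.31, 1.84 and 2.17 CPM in WT and 0.603, 0.797, 0.946 and 0.498 CPM in Idh1 R132H, a log2 fold change of −1.33 ± 0.24 (edgeR adjusted p = 0.0131). At both peaks the Idh1 R132H libraries lay below all 16 others. Tns1 took 44 peaks of the stretch in all, and no other was called in Idh1 R132H. The intron 2 peak lost its call without WT replicate 1, without WT replicate 4, without Idh1 R132H replicate 1 or without Idh1 R132H replicate 4, with an adjusted p of up to 0.124.

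The other 3 called peaks were lowered in Idh1 R132H and lowered further in Idh2 R172K. An intergenic peak 12631 bases from Lancl1, which encodes a glutathione-binding protein (chr1:66987493-66988279), had 15.3, 12.8, 12.5 and 15.9 CPM in WT, 9.18, 8.14, 8.0 and 7.43 CPM in Idh1 R132H and 4.77, 3.31, 4.66 and 5.80 CPM in Idh2 R172K. The 3 groups did not overlap. Its log2 fold change against WT was −0.79 ± 0.10 in Idh1 R132H (edgeR adjusted p = 2.55e-05) and −1.58 ± 0.11 in Idh2 R172K (1.1e-15), and the 2 mutants differed by 0.79 ± 0.11 (2.84e-07).

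A peak 166870 bases from Cps1, the carbamoyl phosphate synthetase gene of the urea cycle (chr1:67397824-67398450), had 3.30, 4.13, 2.83 and 3.77 CPM in WT, 1.13, 1.71, 1.69 and 1.22 CPM in Idh1 R132H and 0.539, 0.974, 0.628 and 0.676 CPM in Idh2 R172K. Here too the 3 groups were separate, with log2 fold changes against WT of −1.32 ± 0.17 (edgeR adjusted p = 3.88e-05) and −2.42 ± 0.21 (4.41e-13). The Klf7 peak, within the body of this Krüppel-like transcription factor gene (chr1:64087847-64088605), had 4.67, 4.87, 4.07 and 4.55 CPM in WT and 2.87, 2.56, 2.84 and 2.81 CPM in Idh1 R132H, with 1.35 to 2.05 CPM in Idh2 R172K. Its log2 fold change was −0.71 ± 0.12 in Idh1 R132H (edgeR adjusted p = 0.00716) and −1.40 ± 0.14 in Idh2 R172K (3.83e-11). Without WT replicate 2 its adjusted p in Idh1 R132H was 0.0581. The comparisons with WT share the WT libraries. Idh2 R140Q and the Tet2 knockout were not called at any of the 8 peaks called in Idh1 R132H. Idh2 R172K was called at 4 of them: lowered at the Lancl1, Cps1 and Klf7 peaks and raised at the Tns1 intron 3 peak.

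Separation of all 4 Idh1 R132H libraries from all 16 others, without regard to a test, held for 8 peaks of the stretch (0.871%), 2 above and 6 below, beside 0.0888% of all tested peaks. Among them were the 4 lowered peaks described above and 3 peaks that missed the adjusted p against WT. The promoter of Abi2, an actin regulator gene (chr1:60408963-60410364), had 33.4 ± 0.365 CPM in Idh1 R132H and 29.9 ± 2.4 in WT. A promoter-class peak of Acadl, the long-chain acyl-CoA dehydrogenase gene (chr1:66862707-66863671), had 36.8 ± 1.53 and 42.2 ± 1.46 CPM. The nearest start listed for it was 3608 bases away. An intergenic peak 18980 bases from Fzd5, a Wnt receptor gene (chr1:64755808-64757651), had 7.24 ± 0.341 and 9.58 ± 0.536 CPM.

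Small p values were also more frequent in the stretch in Idh1 R132H. An unadjusted p under 0.05 was reached by 92 of the 919 peaks (10.0%), beside 5.07% of all tested peaks. In Idh2 R140Q the same share was 5.11% (47 peaks), beside 5.50% over all tested peaks. The median log2 fold change of the stretch was 0.00 in Idh1 R132H, and the median size of the change without its sign was 0.125, beside 0.0999 over all tested peaks.

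**Figure D2:**
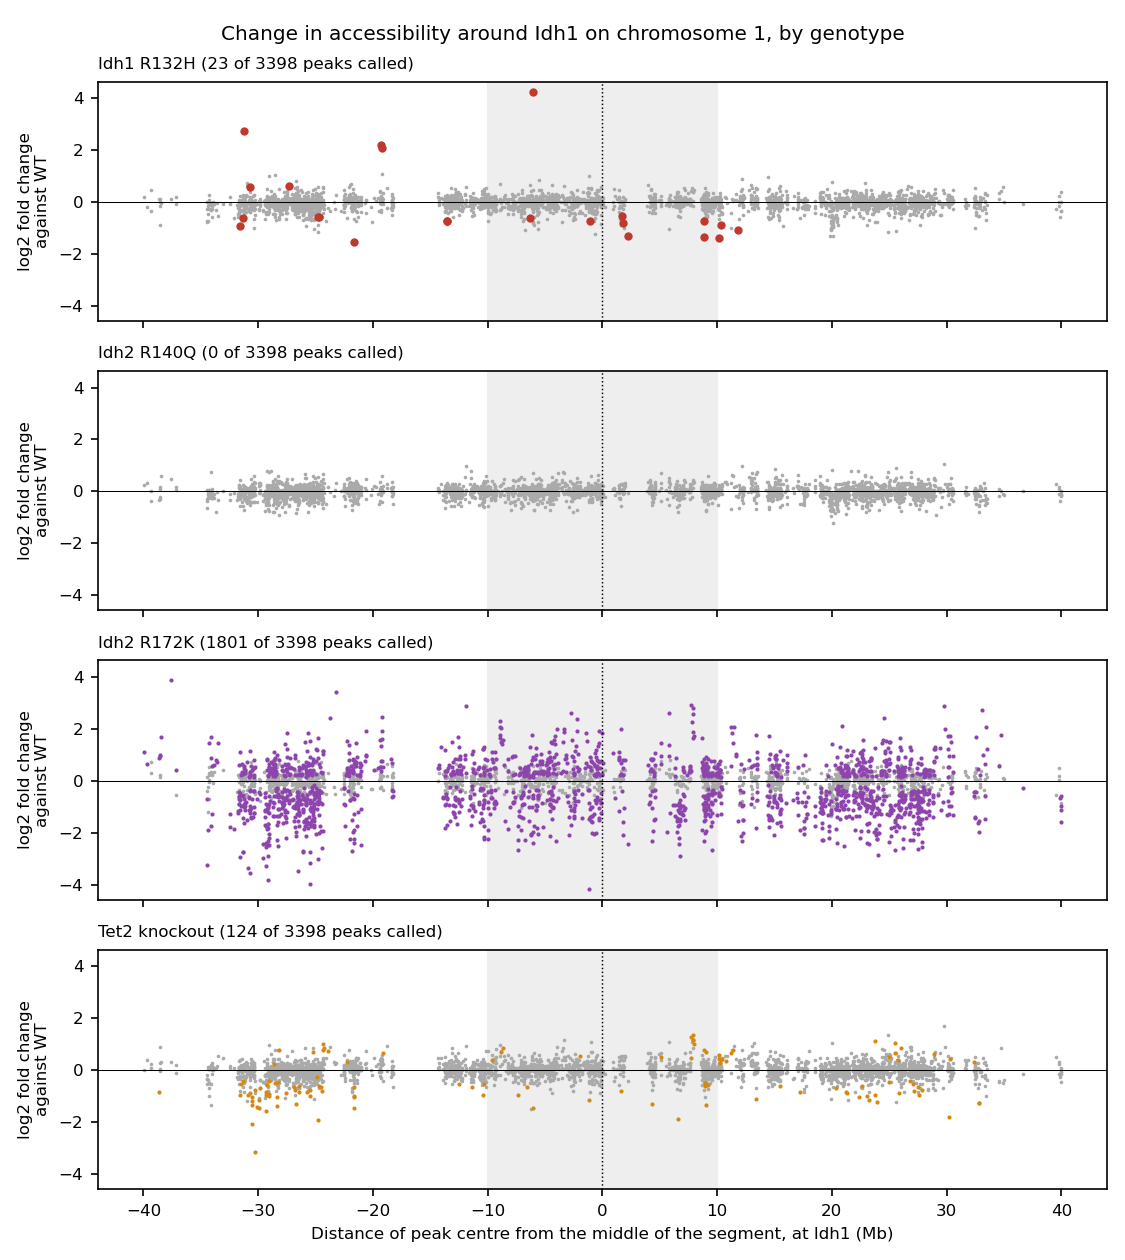
Log2 fold change against WT (vertical axis) of each tested chromosome 1 peak within 40 Mb, by its distance from the middle of the stretch in Mb (horizontal axis, dotted line at 0, the stretch in grey), with 1 panel per mutant genotype. Coloured points have an adjusted p under 0.05 and grey points do not. Calls in Idh1 R132H lie on both sides of the stretch as well as in it, Idh2 R140Q has none here, and in Idh2 R172K calls of both directions lie over the whole range.

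The calls of Idh1 R132H did not end at the edges of the stretch. Of its 34 calls in the genome, 24 were on chromosome 1 and 10 on all other chromosomes. On chromosome 1, 23 lay between 33.6 and 77.0 Mb, a span of 43.5 Mb with 2134 tested peaks, and 1 lay at 184.7 Mb near Hlx. All 12 peaks that differed from every other genotype were on chromosome 1, from 33.9 to 75.3 Mb, and 7 of them lay outside the stretch. Among those 7 were a peak at the end of a Dst transcript (log2 fold change 2.73, edgeR adjusted p = 2.55e-05) and a peak classed as a promoter at Slc40a1, the iron exporter gene (2.21, 0.0131). Another was an intergenic peak named for Dnpep, 10.1 Mb above the middle of the stretch (−1.38, 0.0131).

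The share of peaks with an unadjusted p under 0.05 was 10.6% over that span in Idh1 R132H, beside 5.07% of all tested peaks. In Idh2 R140Q it was 6.47%, beside 5.50%. The limits of the span were set by the Idh1 R132H calls themselves, which favours the Idh1 R132H share, so the 2 shares are not an even comparison. In bins of 5 Mb the Idh1 R132H share was highest 35 to 30 Mb below the middle of the stretch and 0 to 5 Mb above it (18.8% in both, of 165 and 85 peaks). From 20 to 25 Mb above, it was 3.24% of 463 peaks. For comparison, the equally long stretch around Idh2 on chromosome 7 had 1011 tested peaks. In Idh1 R132H edgeR called none of them, beside 0.0274% of all tested peaks. An unadjusted p under 0.05 was reached there by 57 (5.64%, beside 5.07%). In Idh2 R140Q it had 8 calls (0.791%, beside 0.0153% of all tested peaks). The sequence of the strains was not analysed here, so strain DNA and an effect of the enzyme on the same chromosome cannot be told apart.

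**Figure D3:**
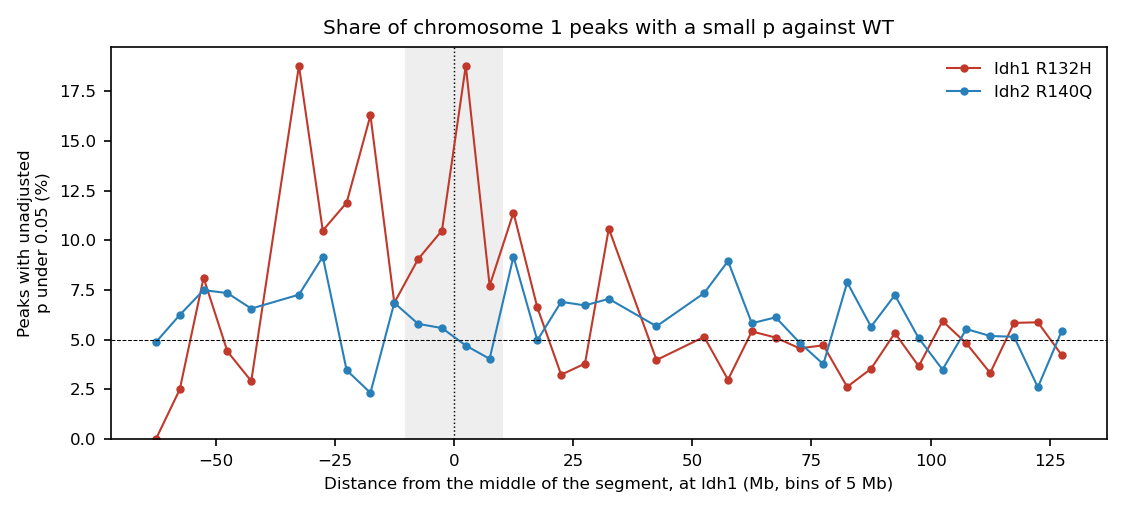
Percentage of tested chromosome 1 peaks with an unadjusted p under 0.05 against WT (vertical axis), in bins of 5 Mb of distance from the middle of the stretch (horizontal axis, the stretch in grey), for Idh1 R132H and Idh2 R140Q. Bins with under 20 peaks are left out and the dashed line marks 5%. The Idh1 R132H line reaches 18.8% in the bins 35 to 30 Mb below and 0 to 5 Mb above, where the Idh2 R140Q line is at 7.27% and 4.71%.

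Idh2 R140Q had no call in the stretch by edgeR or by DESeq2 (lowest edgeR adjusted p = 0.778), beside 0.0153% of all tested peaks. The peaks with the smallest p whose libraries were separate from WT had small differences. The promoter of Icos, a T cell costimulator gene, had 3.06 ± 0.346 CPM in WT and 3.93 ± 0.379 CPM in Idh2 R140Q (edgeR adjusted p = 0.793). A peak in intron 31 of 34 of Aox1, an aldehyde oxidase gene, had 1.31 ± 0.176 and 0.837 ± 0.131 CPM (0.826).

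In Idh2 R172K, 497 of the 919 peaks were called (54.1%), beside 53.0% of all tested peaks. Raised peaks numbered 257 (28.0%, beside 25.1%) and lowered peaks 240 (26.1%, beside 27.9%). The balance turned with the scaling, with 192 raised and 264 lowered by library size only and 275 and 211 by cyclic loess. Promoter-class peaks numbered 52 raised and 17 lowered, intron peaks 97 and 111 of 376 and intergenic peaks 77 and 87 of 299. These counts stand beside 25.1% raised and 27.9% lowered over all tested peaks of any class. Rates for the same classes over all chromosomes are not given here, so no class pattern of the stretch is read from them. Of the peaks over promoter windows, 44.8% were raised and 10.5% lowered in the stretch, beside 44.4% and 11.7% on all chromosomes. The 47 raised peaks over such windows had a median of 23 CpG, the 11 lowered peaks a median of 7 and the 47 that were not called a median of 23. Over all chromosomes these medians were 21, 8 and 20. In the same libraries the granulocyte and monocyte markers had 4.48 to 5.08 CPM per gene, beside 6.03 to 7.02 in WT, and the stromal and endothelial markers 15.8 to 17.8, beside 12.6 to 15.7. The LSK and progenitor markers had 23.1 to 25.8, beside 21.5 to 23.2 in WT. The erythroid list, with 1 marker peak, had 8.81 to 11.7, beside 9.07 to 11.1. Ly6g, Cdh5 and Cxcl12 had no peak at their start, and the part of any of these cell types in these results was not tested.

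Among the lowered peaks of Idh2 R172K, the Casp8 promoter peak, at the gene of an initiator caspase of death receptor signalling, fell from 25.2 ± 2.8 to 12.7 ± 0.576 CPM (log2 fold change −0.99 ± 0.08, edgeR adjusted p = 5.23e-14). The Casp8 peak lies over the RefSeq window printed above, which holds 5 CpG, but the nearest start listed for it was 4848 bases away. An intron peak of Trak2, which encodes an adaptor of mitochondrial transport, fell from 12.6 ± 1.01 to 2.99 ± 0.545 CPM (−2.10 ± 0.11, 6.29e-19). A peak within Wnt6, a Wnt ligand gene, fell from 13.6 ± 0.571 to 4.46 ± 0.31 CPM (−1.61 ± 0.11, 4.57e-16). It was classed as a promoter, but the nearest start listed for it was 4824 bases away. A distal peak named for Fn1, the fibronectin gene, fell from 3.59 ± 0.142 to 0.631 ± 0.184 CPM (−2.42 ± 0.21, 1.56e-12).

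Among the raised peaks, the Fzd5 promoter, the most CpG-rich of the printed windows, rose from 65.3 ± 3.93 to 90.2 ± 6.82 CPM in Idh2 R172K (log2 fold change 0.46, edgeR adjusted p = 1.13e-07). A peak in the Icos gene rose from 2.63 ± 0.355 to 7.75 ± 0.637 CPM (1.59 ± 0.14, 7.93e-13). A peak 17522 bases from Ikzf2, the Helios transcription factor gene, rose from 16.6 ± 1.4 to 28.9 ± 0.494 CPM (0.79 ± 0.07, 3.45e-12). An intron peak of Acadl rose from 1.59 ± 0.392 to 6.06 ± 0.748 CPM (1.99 ± 0.15, 3.61e-14).

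The gene lists of the stretch had calls in both directions in Idh2 R172K, to be read beside 25.1% raised and 27.9% lowered over all tested peaks. Of 143 peaks named for immune and blood signalling genes, 39 were raised (27.3%) and 43 lowered (30.1%), with a median log2 fold change of −0.05. Developmental ligands, receptors and matrix genes had 56 raised and 51 lowered of 188 (29.8% and 27.1%, median 0.11), and transcription factors 23 and 26 of 101 (22.8% and 25.7%, median 0.06). The 86 peaks of the neighbours of Idh1 had 34 raised (39.5%) and 19 lowered (22.1%), with a median of 0.21. DNA repair and chromatin genes had 10 and 7 of 42 (23.8% and 16.7%, median 0.09), and metabolism and mitochondrial genes 11 and 13 of 49 (22.4% and 26.5%, median −0.01). The median was 0.07 over the stretch and 0.01 over all tested peaks.

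Single members show the spread of these lists. In intron 1 of 8 of Cyp27a1, the sterol 27-hydroxylase gene, a peak fell from 6.92 ± 0.843 to 2.97 ± 0.374 CPM in Idh2 R172K (log2 fold change −1.25, edgeR adjusted p = 7.04e-11). A distal peak named for Bard1, whose protein pairs with BRCA1 in DNA repair, rose from 0.31 ± 0.151 to 1.8 ± 0.15 CPM (2.61, 3.19e-09). In Idh1 R132H the lists held 0 to 2 called peaks each, all of them lowered.

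The strongest peaks of the stretch in WT did not pass the test in any mutant: a Kansl1l intron peak (130 ± 5.96 CPM in WT), the promoters of Creb1 (114 ± 3.6), Pnkd (114 ± 8) and Klf7 (108 ± 3.25) and a peak near Pecr (87 ± 9.33). Their log2 fold changes ran from −0.11 to 0.18 over the 4 comparisons with WT.

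In the Tet2 knockout, 25 of the 919 peaks were called (2.72%), beside 3.10% of all tested peaks. The 13 raised peaks made up 1.41%, beside 0.785%, and the 12 lowered peaks 1.31%, beside 2.32%. The count was 12 without WT replicate 1, 16 without WT replicate 2, 15 without Tet2 knockout replicate 1 and 15 with DESeq2. The split was 11 raised and 21 lowered in a fit on the 8 libraries compared. Of the 13 raised peaks, 6 belonged to a single run of 8 peaks around Tnp1, the gene of a sperm chromatin protein, from 72.95 to 73.20 Mb. All 8 peaks of this run were raised in Idh2 R172K, beside 25.1% of all tested peaks. The Tet2 knockout call at the first peak of the run by position (chr1:72945490-72946614, edgeR adjusted p = 0.0487) was lost in 17 of 28 other settings, and its Idh2 R172K call in 3. The Tet2 knockout had 4 calls in the run without WT replicate 1, without WT replicate 4 or without Tet2 knockout replicate 1, and 5 with DESeq2.

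The run is shown by its most accessible peak in Idh2 R172K, 56778 bases above Tnp1 (chr1:73072293-73073062). It had 1.56, 1.43, 2.43 and 2.71 CPM in WT, 4.95, 3.95, 4.33 and 4.81 CPM in the Tet2 knockout and 11.7, 10.7, 12.2 and 12.4 CPM in Idh2 R172K. The 3 groups were separate, while Idh1 R132H (2.28 to 2.91 CPM) and Idh2 R140Q (2.02 to 3.56 CPM) overlapped WT. The log2 fold change was 1.18 ± 0.16 in the Tet2 knockout (edgeR adjusted p = 6.69e-06) and 2.57 ± 0.15 in Idh2 R172K (6.48e-18). Over the 8 peaks the median log2 fold change was 1.10 (Tet2 knockout), 2.06 (Idh2 R172K), 0.39 (Idh1 R132H) and 0.28 (Idh2 R140Q), and the last 2 genotypes had no call among them. The run was singled out after its values had been seen.

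**Figure D4:**
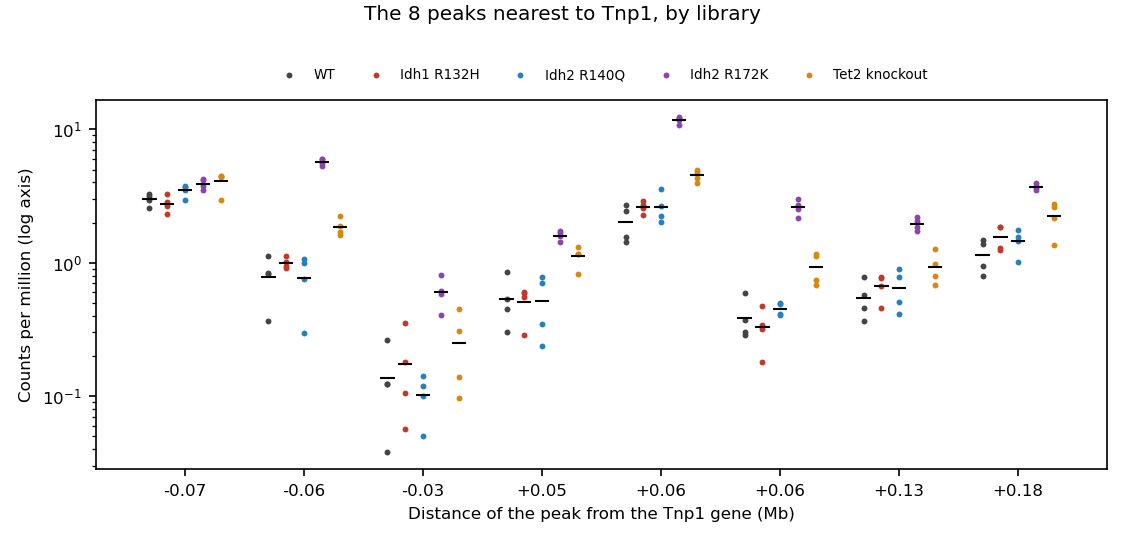
CPM on a log axis for the 8 peaks named for Tnp1, ordered by position and labelled by their distance from the gene in Mb (horizontal axis). Points are libraries, coloured by genotype, and bars are means of 4. Idh2 R172K is called higher than WT at all 8 peaks and the Tet2 knockout at 6 (4 without WT replicate 1). Over all tested peaks 25.1% were raised in Idh2 R172K and 0.785% in the Tet2 knockout. At the peak 56778 bases above the gene the means are 2.03 CPM in WT, 4.51 in the Tet2 knockout and 11.8 in Idh2 R172K.

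Lowered peaks of the Tet2 knockout included 4 of the 15 peaks named for Cxcr1 and Cxcr2, neighbouring genes of chemokine receptors that guide neutrophils. Over all tested peaks, 2.32% were lowered in the Tet2 knockout. The 15 peaks were singled out after their values had been seen. Of the 4 Tet2 knockout calls 1 was left without WT replicate 4, and 2 without WT replicate 1, without Tet2 knockout replicate 1, without Tet2 knockout replicate 4 or with DESeq2. The call at the Cxcr1 promoter held in all 28 settings. The Cxcr1 promoter, whose printed window holds 7 CpG, had 1.29 ± 0.224 CPM in WT, 0.505 ± 0.188 in the Tet2 knockout (log2 fold change −1.36 ± 0.28, edgeR adjusted p = 0.00234) and 0.341 ± 0.112 in Idh2 R172K (−1.95 ± 0.32, 1.89e-06). Of the same 15 peaks, 7 were lowered (46.7%, beside 27.9% of all tested peaks) and 2 raised (13.3%, beside 25.1%) in Idh2 R172K, and neither raised call held without WT replicate 1 or without Idh2 R172K replicate 1. Idh1 R132H and Idh2 R140Q had no call at either gene. A peak at the end of Slc11a1, the gene of a phagosome metal transporter, fell from 3.77 ± 0.433 to 2.48 ± 0.347 CPM in the Tet2 knockout (−0.59 ± 0.15, edgeR adjusted p = 0.0145, and 0.0856 without WT replicate 1). In these libraries the granulocyte and monocyte markers had 5.62 to 6.31 CPM per gene beside 6.03 to 7.02 in WT, and their part in the result was not tested.

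The lowered peak with the smallest p in the Tet2 knockout was a distal peak named for Fn1 (0.942 ± 0.26 to 0.243 ± 0.0443 CPM, log2 fold change −1.89 ± 0.32, edgeR adjusted p = 0.000199). A peak within Klf7, at the start of another Ensembl gene, fell from 9.99 ± 1.19 to 4.57 ± 0.592 CPM (−1.14 ± 0.20, 0.0022) and to 0.559 ± 0.2 CPM in Idh2 R172K. A Tns1 intron peak (chr1:74018199-74018717) went opposite ways: it rose from 2.91 ± 0.128 to 4.96 ± 0.525 CPM in the Tet2 knockout (0.76 ± 0.15, 0.00124) and fell to 0.679 ± 0.403 CPM in Idh2 R172K (−2.34 ± 0.22, 1.34e-11).

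The peaks just inside and just outside the limits of the stretch are given in WT and Idh1 R132H. The first member, in an intron of Rftn2, had 1.49 ± 0.192 and 1.5 ± 0.199 CPM, and the Rftn2 peak before it 0.515 ± 0.0687 and 0.374 ± 0.0862 CPM. The last member, the Ankzf1 promoter, had 53.2 ± 4.14 and 57.0 ± 2.22 CPM, and the peak after it, at Glb1l, 6.42 ± 0.743 and 6.18 ± 0.423 CPM.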

How the data were processed

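ATAC-seq of sorted mouse LSK cells gave 20 libraries, 4 for each of 5 genotypes. The authors deposited whole-number counts per peak for 1 peak set common to all libraries, with an annotation table of the same peaks, in mm10. The submitters' processing notes name featureCounts, MACS2, BWA, SAMtools, Picard and Trim Galore. Their settings, and any shift of reads to the transposase cut, were not given in the sources used here. Columns named for Idh1 with the R140Q change were taken as Idh2 R140Q, the only genotype with that change.

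Peaks took their names from 21900 RefSeq genes that code for protein (GRCm38.p6), from the one that holds the peak centre or otherwise the nearest. A name marks a neighbour, not a regulated gene. Intron and exon numbers are those of the annotation table and refer to the Ensembl gene it gives, which can be another gene than the RefSeq one named.

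The main test was that of edgeR 4.0.16, run in R 4.3.3 on the counts (scaled by TMM, filtered by genotype, with a robust quasi-likelihood fit over the 20 libraries, 123908 peaks tested and 1435 removed), and p values were adjusted by Benjamini-Hochberg over all tested peaks, with a threshold of 0.05. CPM uses TMM-scaled library sizes. Standard errors are the log2 fold change over the root of F. The procedure was tested on simulated data. Peaks called in Idh1 R132H, those differing from every other genotype and those named Idh1 were to be named in full; some results at withheld items are not reported here. For each other genotype the first 5 in each direction by p, separate from WT, were eligible, and per gene list up to 3 genes by p, the edge peaks and the 5 strongest in WT. The Tnp1, Cxcr1 and Cxcr2 peaks, the Fzd5 promoter, the shared start of Idh1 and Pikfyve, the peaks named outside the stretch, those with no overlap and those called in the Tet2 knockout were added after their values were seen. The members and lists were chosen with earlier results of these data known.

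Same-numbered libraries deviated together between Idh1 R132H and WT (correlations of 0.222, 0.168, 0.102 and 0.232) and between Idh2 R140Q and WT (0.173, 0.275, 0.131 and 0.115). The numbers come from the labels, and a pairing by number was tried as a replicate block, while the main fit used no block. In these genotypes replicates 1 and 3 had low and replicates 2 and 4 high Xist accessibility. Same-numbered libraries thus also shared an Xist level. Libraries of different number were not compared, so whether the correlations go with the number or with the Xist level was not tested. Alternatives tried were 3 other scalings, no filter, DESeq2 1.42.0, a replicate block, a term for high or low Xist accessibility, each library left out, a fit on the 8 libraries compared, other widths of the stretch and a threshold of 0.01.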

Additional observations from a re-analysis of the deposited data

Results flagged for a closer look

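Among the peaks named, 305 groups of 4 libraries could be tested for 1 library far from the other 3, and 20 groups had one. Chance gives about 1 in 20 such groups, and no explanation was tested. In Idh2 R140Q, 1 library lay above the rest at Casp8 (peak start 58802127) with 27.2 CPM in replicate 2 and 23.5 to 24.0 in the others. In Tet2 knockout, 1 library lay above the rest at Klf7 (peak start 64087847) with 5.21 CPM in replicate 3 and 4.57 to 4.68 in the others and at Tns1 (peak start 74055519) with 13.6 CPM in replicate 1 and 11.5 to 11.7 in the others. In Idh1 R132H, 1 library lay above the rest at Klf7 (peak start 64121275) with 128.0 CPM in replicate 4 and 108.0 to 109.0 in the others and at Klf7 (peak start 64198462) with 4.49 CPM in replicate 3 and 4.25 to 4.27 in the others. In Idh1 R132H, 1 library lay above the rest at Bard1 (peak start 70996104) with 0.342 CPM in replicate 2 and 0.0788 to 0.106 in the others. In WT, 1 library lay above the rest at Creb1 (peak start 64532045) with 120.0 CPM in replicate 4 and 112.0 to 113.0 in the others. In Idh2 R172K, 1 library lay above the rest at Creb1 (peak start 64532045) with 141.0 CPM in replicate 4 and 121.0 to 122.0 in the others and at Idh1 (peak start 65178060) with 88.2 CPM in replicate 4 and 81.1 to 81.9 in the others. In Idh2 R140Q, 1 library lay below the rest at Trak2 (peak start 58953707) with 11.3 CPM in replicate 1 and 11.7 to 11.8 in the others and at Nhej1 (peak start 74964428) with 2.65 CPM in replicate 1 and 2.97 to 2.99 in the others. In Idh2 R172K, 1 library lay below the rest at Pard3b (peak start 61344060) with 0.554 CPM in replicate 3 and 0.957 to 1.0 in the others and at Wnt6 (peak start 74781947) with 4.0 CPM in replicate 4 and 4.58 to 4.68 in the others. In Tet2 knockout, 1 library lay below the rest at Acadl (peak start 66845568) with 1.78 CPM in replicate 3 and 2.19 to 2.22 in the others and at Tnp1 (peak start 72945490) with 2.97 CPM in replicate 2 and 4.39 to 4.48 in the others. In WT, 1 library lay below the rest at Myl1 (peak start 66895055) with 16.3 CPM in replicate 3 and 18.2 to 18.6 in the others and at Fn1 (peak start 71900560) with 3.38 CPM in replicate 1 and 3.64 to 3.68 in the others. In WT, 1 library lay below the rest at Catip (peak start 74369984) with 0.943 CPM in replicate 4 and 1.05 to 1.06 in the others. In Idh1 R132H, 1 library lay below the rest at Tnp1 (peak start 73070299) with 0.285 CPM in replicate 2 and 0.552 to 0.603 in the others and at Arpc2 (peak start 74227237) with 11.2 CPM in replicate 2 and 12 to 12.2 in the others.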

How the results depend on the processing

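The 8 calls of Idh1 R132H became 4 within 5 Mb of the middle of the stretch and 15 within 20 Mb, the 497 of Idh2 R172K became 207 and 820, the 25 of the Tet2 knockout became 4 and 41, and the 5 peaks differing in Idh1 R132H from every other genotype became 1 and 8, because the peaks tested differ. The Tet2 knockout had 11 calls at a threshold of 0.01 and 15 with DESeq2, and the cause of the latter was not tested. Under the other settings with all libraries, Idh1 R132H had 7 to 9 calls and Idh2 R140Q 0. With each library left out in turn, the counts ran from 7 to 8 in Idh1 R132H, from 441 to 506 in Idh2 R172K, from 12 to 37 in the Tet2 knockout and from 4 to 5 for peaks differing from every other genotype. With the replicate block, Idh1 R132H had 9 calls and Idh2 R140Q 0. In the other 2 comparisons the block gave 517 calls in Idh2 R172K and 45 in the Tet2 knockout. Correlations of same-numbered libraries with WT ran from −0.0479 to 0.122 for Idh2 R172K, overlapping those of Idh1 R132H and Idh2 R140Q. For the Tet2 knockout they ran from 0.0318 to 0.0911. Its replicate 2 had low and its replicate 3 high Xist accessibility, the reverse of WT, so there the numbers do not match libraries of like Xist level. No call kept under another setting had the opposite direction. Log2 fold changes near 0 that were not called did change sign, as at both Idh1 peaks in Idh1 R132H (−0.04 to 0.08 and −0.09 to 0.34). The Tet2 knockout had 18 raised and 27 lowered peaks with the block. Pools of 2 mice, 4 per genotype, and depths of 10.5 to 27.9 M counts limit what could be called: a peak at the low end of the stretch had 0.137 CPM in WT.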
